A study of Mus musculus with 2 samples.

Results

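The microRNA genes of the surface ectoderm, Mir205, Mir203 and the 5 genes of the miR-200 family (Mir200a, Mir200b, Mir429, Mir200c and Mir141), were examined in the limb of the mouse embryo. The 7 genes were chosen by name, among 1973 microRNA genes with a row in the count tables, and all 7 had a row. Small RNA of fewer than 30 nucleotides was sequenced from limbs of B6NCrl embryos at 12.5 days of development, males and females pooled. There was 1 group of 2 biological replicates and no other condition: replicate 1 came from 88 embryos and holds 4525636 gene counts, and replicate 2 came from 68 embryos and holds 3604284. Levels are counts per 1000000 gene counts (CPM), given per library and as mean ± SD (n = 2). They compare read counts between genes, not molecules, since how well each sequence was captured was not measured. In whole limb, fewer ectoderm cells and less of a microRNA per cell cannot be told apart.

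A microRNA guides a silencing complex to messenger RNAs that pair with its seed, bases 2 to 8 of the mature strand, so microRNAs with the same seed share many targets. The miR-200 family is known for holding cells in an epithelial state by repressing transcription factors of the Zeb family such as Zeb2. Mir203 is known in skin for limiting the proliferation of epidermal progenitors through Trp63 (the p63 factor of basal keratinocytes), and Mir205 for its high level in stratified epithelia and hair follicle progenitors. At this stage the limb is a core of mesenchyme and forming cartilage under a thin ectoderm.

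The mature strands below show the seed groups on which the comparisons rest. Capitals mark the seed, and sequences are from RefSeq (GRCm38.p6), 5′ to 3′. For each gene the arm known as the main product is shown.
miR-200b-3p: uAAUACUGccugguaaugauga
miR-429-3p: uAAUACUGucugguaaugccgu
miR-200c-3p: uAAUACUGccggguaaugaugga
miR-200a-3p: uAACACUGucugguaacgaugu
miR-141-3p: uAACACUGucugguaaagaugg
miR-203-3p: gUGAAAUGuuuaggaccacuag
miR-205-5p: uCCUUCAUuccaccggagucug
Mir200b, Mir429 and Mir200c share the seed AAUACUG, and Mir200a and Mir141 share AACACUG. The groups differ within the seed by the single substitution C4U, written as the base of miR-200a-3p, the position from the 5′ end and the base of miR-200b-3p. Among 1738 mature mouse sequences searched, AAUACUG was the seed of these 3 and no other, AACACUG of these 2 and no other, and the seeds of miR-203-3p and miR-205-5p were each held by 1 sequence. The counts cover a whole hairpin, so they do not tell the arms of a hairpin apart, and the seed groups hold as far as the reads came from the arms shown. On the other arm the grouping is different: Mir200a and Mir200b share AUCUUAC, while Mir200c (GUCUUAC), Mir429 (UCUUACC) and Mir141 (AUCUUCC) stand alone.

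The seed groups cross the genomic clusters. Mir200b (chromosome 4, 156055681 to 156055750), Mir200a (156054896 to 156054985) and Mir429 (156053905 to 156053987) lie in that order of transcription on the minus strand of mm10, with gaps of 695 and 908 nucleotides. All 3 lie in an intron of Ttll10, a tubulin glycylase gene, and of the non-coding gene Gm13648, except that Mir429 lies in an exon of Gm13648. Mir200c (chromosome 6, 124718322 to 124718390) and Mir141 (124717914 to 124717985) lie 336 nucleotides apart on the minus strand in an intron of Gm15884, and an exon of Gm29008 covers part of the Mir141 hairpin. Each cluster therefore carries both seeds. Mir205 (chromosome 1, 193507463 to 193507530, minus strand) lies in an exon of its long non-coding host gene 4631405K08Rik, also called Mir205hg. Mir203 (chromosome 12, 112130880 to 112130955, plus strand) overlaps no other gene in this annotation and lies 3321 nucleotides from the nearest protein-coding gene, Aspg.

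The most alike members differ at few positions of the mature strand. miR-200b-3p and miR-200c-3p differ at 2 of 22 compared positions (U11G and A22G), and miR-200a-3p and miR-141-3p at 2 (C17A and U22G), with the first 16 bases identical. The longest run that any of the 7 hairpins shared with a hairpin elsewhere was 17 nucleotides, between Mir200a and Mir141, in a search of 2202 hairpins. Reads that map to several places were set apart in the tables, 27.2% of reads in replicate 1 and 23.7% in replicate 2. How many reads of Mir200a and Mir141 were too short to tell them apart was not tested.

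Each of the 7 genes reached 10 CPM in both libraries, as did 14.5% of all gene rows. Each also reached 100 CPM in both (9.43% of rows), and Mir205, Mir203, Mir429 and Mir200c reached 1000 CPM (4.66%). Together they held 1.86% of the counts in replicate 1 (95% Clopper-Pearson interval 1.85 to 1.87), and replicate 2 gave 1.90% (1.88 to 1.91). These intervals cover counting error within 1 library only. They can be too narrow even for that, because PCR copies of 1 molecule are counted separately. Mir205 and Mir203 made up 63.9% ± 0.94 of the 7 genes' counts and the miR-200 family 36.1% ± 0.94. The skin pair held 11991 CPM in replicate 1 and 11989 CPM in replicate 2. The family summed to 6594 and 6983 CPM.

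**Figure D1:**
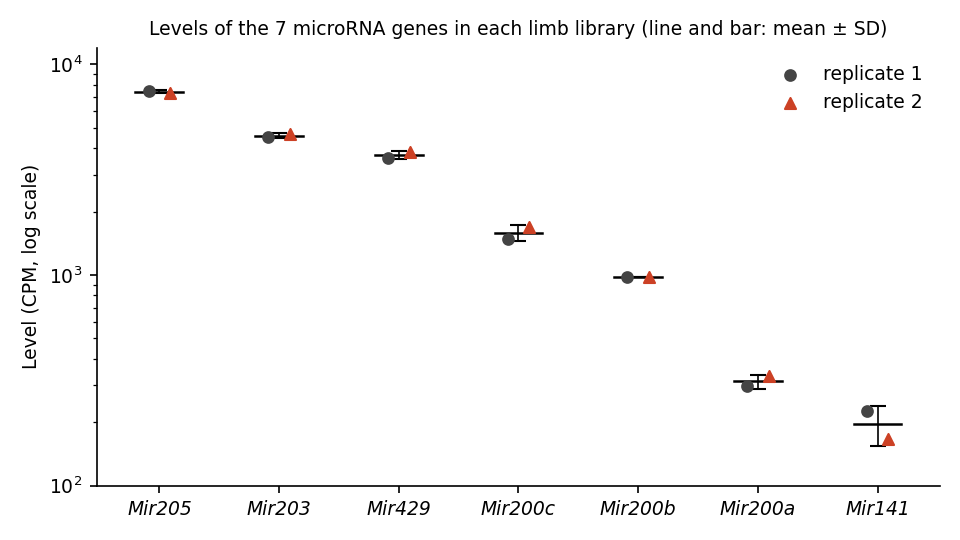
Level of each gene in CPM (log axis) in replicate 1 (circles) and replicate 2 (triangles), with the mean as a line and the SD as a bar. The order from Mir205 at 7403 CPM to Mir141 at 196 CPM was the same in both libraries, and no gene's values overlapped those of its neighbour in the order.

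Mir205, the highest of the 7, ranked 28th of all genes by mean level. It stood at 7488 CPM in replicate 1 and 7318 CPM in replicate 2 (mean 7403 ± 120). The genes next to it were Mir10a above, at 7497 ± 559 CPM, and Mir342 below, at 7345 ± 523 CPM, and both differ from Mir205 by less than their own spread. Mir203 stood at 4503 and 4671 CPM (mean 4587 ± 119) and ranked 46th. Its neighbours were Mir21a at 4806 ± 381 and Mir30d at 4293 ± 52 CPM. The Mir205 to Mir203 ratio was 1.66 in replicate 1 (interval 1.63 to 1.69), and replicate 2 gave 1.57 (1.54 to 1.60). Mir205 was thus the higher of the skin genes in both libraries. The intervals of the ratio did not overlap, but they can be too narrow even for counting error.

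Within the miR-200 family Mir429 led. Mir429 stood at 3605 CPM in replicate 1 and 3820 CPM in replicate 2 (mean 3712 ± 152) and ranked 51st. It held 54.7% of the family's counts in each library (intervals 54.1 to 55.2 and 54.1 to 55.3). Mir200c, of the other cluster, came next at 1487 and 1683 CPM (mean 1585 ± 139, rank 81). Mir200b followed at 981 and 983 CPM (mean 982 ± 1.7, rank 94), the closest pair of values among the 7. Mir200a stood at 296 and 330 CPM (mean 313 ± 24, rank 139), and Mir141 was lowest at 226 and 166 CPM (mean 196 ± 42, rank 158).

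By ratio, the narrowest step in both libraries was Mir203 over Mir429, by 1.25 times in replicate 1 and 1.22 in replicate 2. Mir200a over Mir141, the lowest genes, differed most between the libraries, by 1.31 and 1.98 times. The gap between Mir203 and Mir429, 875 CPM, exceeded the larger of their SDs (152 CPM). That between Mir200a and Mir141, 117 CPM, exceeded its own (42 CPM). The order of all 7 was therefore the same in both libraries, but with 2 libraries in 1 group an exact sign-flip permutation test cannot go below a two-sided p of 0.5, so no p-value is attached to it.

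**Figure D2:**
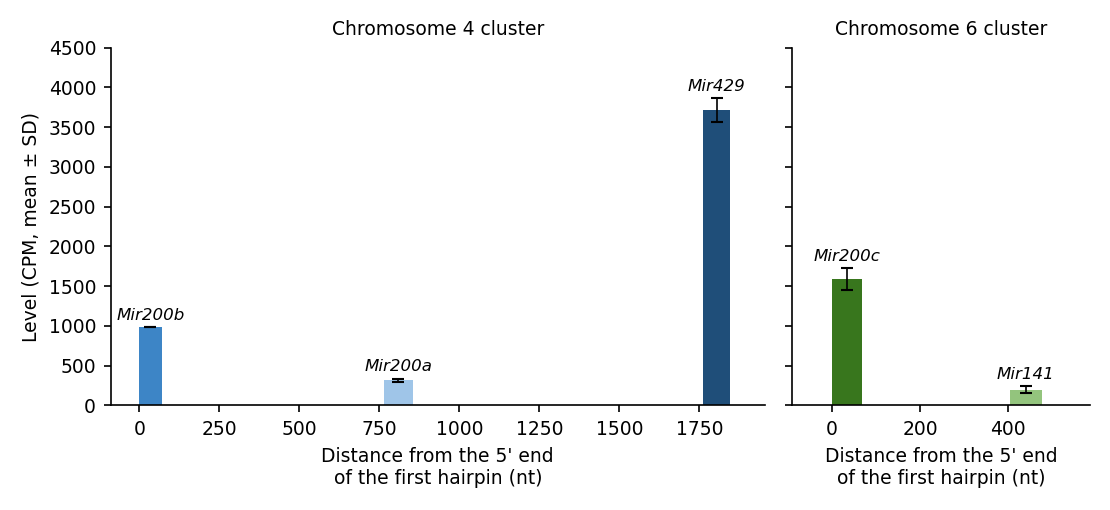
Mean level ± SD in CPM (linear axis from 0) of each hairpin against its distance in nucleotides from the 5′ end of the first hairpin, for the chromosome 4 cluster (left) and the chromosome 6 cluster (right). Mir429, the last hairpin on chromosome 4, was the highest at 3712 CPM, while on chromosome 6 the first hairpin, Mir200c, stood above Mir141.

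The chromosome 4 cluster gave more counts than the chromosome 6 cluster, and this rested on Mir429. The 3 genes on chromosome 4 summed to 4881 and 5133 CPM (mean 5007 ± 178) and the 2 on chromosome 6 to 1713 and 1850 CPM (mean 1781 ± 97). The ratio was 2.85 in replicate 1 (interval 2.78 to 2.92) and 2.78 in replicate 2 (2.70 to 2.85), and the intervals overlap. Per hairpin the mean ratio was 1.87. Without Mir429, Mir200a and Mir200b together reached only 0.745 of the chromosome 6 cluster in replicate 1 and 0.710 in replicate 2, so the direction reversed.

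Hairpins of the same cluster stood at unequal levels. On chromosome 4, Mir429 exceeded Mir200b by 3.68 and 3.88 times in replicates 1 and 2, and Mir200a, which lies between them, by 12.2 and 11.6 times. On chromosome 6, the Mir200c to Mir141 ratio was 6.59 in replicate 1 (interval 6.17 to 7.04), and replicate 2 gave 10.1 (9.30 to 11.0). For these chromosome 4 ratios the intervals of the libraries overlapped, although neither library's Mir429 to Mir200b ratio lay inside the interval of the other (3.56 to 3.80 and 3.74 to 4.03). For chromosome 6 they did not overlap.

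Ranges of like size were found in other microRNA clusters. Detected genes on 1 strand within 10000 nucleotides of each other formed 40 clusters, whose highest member exceeded the lowest by a median of 16.4 times. With the ratio of mean levels, 11.9 for the chromosome 4 cluster and 8.08 for the chromosome 6 cluster, 22 and 25 clusters had a wider range. In 22 of the 40 clusters a member shares 20 nucleotides or more with a hairpin elsewhere, so that reads from it can map to several places. Among the other 18, the median was 8.01, with 7 clusters above the chromosome 4 cluster and 8 above the chromosome 6 cluster. Both miR-200 clusters are among the 40 and the 18, and clusters of more members can have wider ranges. Of the 18, 13 have 2 members, with a median of 4.54, and 4 of them lie above the chromosome 6 cluster. Another 3 have 3 members, and 1 of them lies above the chromosome 4 cluster.

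**Figure D3:**
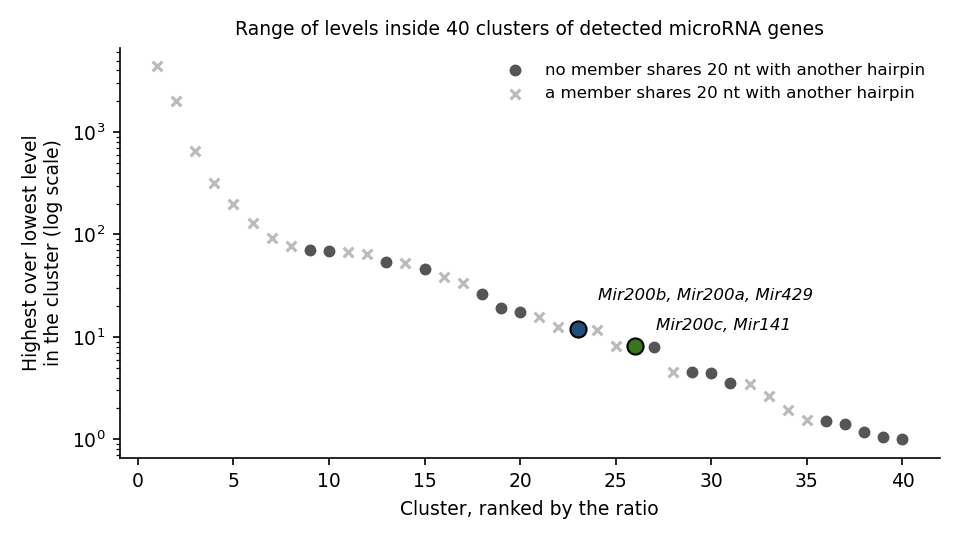
Ratio of the highest to the lowest mean level inside each of 40 clusters of detected microRNA genes (log axis), ranked, with crosses for clusters in which a member shares 20 nucleotides with another hairpin. The miR-200 clusters (large points, 11.9 and 8.08) lie in the middle of the ranking.

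By seed, the AAUACUG group held nearly all of the family's counts. Mir200b, Mir200c and Mir429 summed to 6073 CPM in replicate 1 and 6486 CPM in replicate 2, or 92.1% and 92.9% of the family (intervals 91.8 to 92.4 and 92.6 to 93.2). Mir200a and Mir141 summed to 522 and 496 CPM. The groups' ratio in replicate 1 was 11.6, with an interval of 11.2 to 12.2, and replicate 2 gave 13.1 (12.4 to 13.7), a mean of 12.4 ± 1.0, and per hairpin 8.24. The difference had the same direction within each cluster, with mean ratios of 15.0 ± 0.66 on chromosome 4 and 8.35 ± 2.49 on chromosome 6. Each AAUACUG gene stood above each AACACUG gene in both libraries.

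The makeup of the groups also differed. Within AAUACUG, Mir429 held 59.1% ± 0.33, Mir200c 25.2% ± 1.03 and Mir200b 15.7% ± 0.70. Within AACACUG, Mir200a held 56.7% in replicate 1 (interval 54.7 to 58.7) and 66.5% in replicate 2 (64.2 to 68.7), the rest being Mir141. In both groups the larger part came from chromosome 4. Of the 7 genes, 1 had counts on its opposite strand, Mir203 with 84 and 77. Such reads, above 3 counts in both libraries in 0.912% of all rows, are not in the levels.

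**Figure D4:**
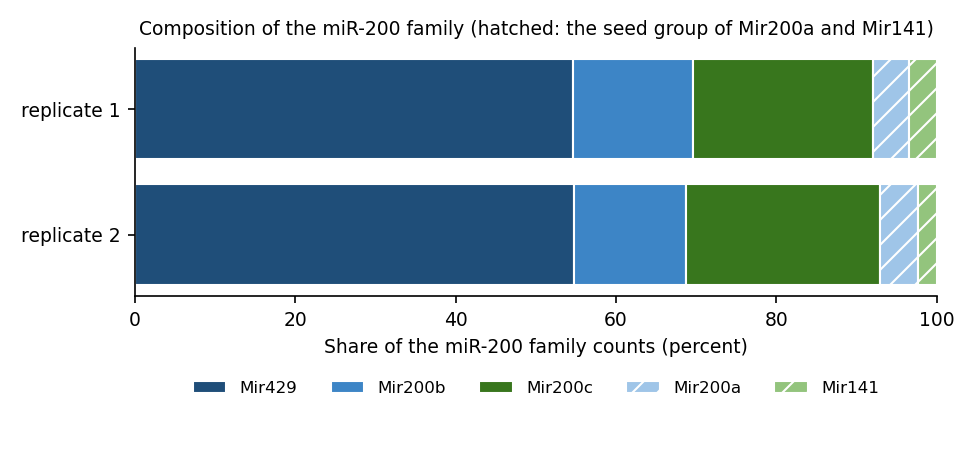
Share of the miR-200 family counts held by each gene in the 2 libraries, in percent, with hatching for the seed group of Mir200a and Mir141. Mir429 held 54.7% in both libraries, and the hatched part was 7.91% in replicate 1 and 7.11% in replicate 2.

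Zeb2, a known target of the family, shows what the seeds can pair with. No messenger RNA was measured here, so the matches are a description of sequence. Its longest annotated 3′ UTR (4941 nucleotides, GENCODE M21) holds 5 copies of CAGTATT, the complement of the AAUACUG seed, and 4 of CAGTGTT, that of AACACUG. Only the messenger strand was searched, and the sites do not overlap. Of 1094 longest 3′ UTRs from 0.8 to 1.25 times that length, 38.3% hold CAGTATT and 51.1% hold CAGTGTT, and 3 hold 5 or more copies of CAGTATT and 19 (1.74%) hold 4 or more of CAGTGTT, Zeb2 included in both. The first 2 sites of each kind are shown with the match in capitals, on mm10 (minus strand).
Zeb2, CAGTATT at chr2:44988174-44988180: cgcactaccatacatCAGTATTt
Zeb2, CAGTATT at chr2:44988109-44988115: cgcactacagtgcatCAGTATTa
Zeb2, CAGTGTT at chr2:44988358-44988364: tgcaaaaattttgtaCAGTGTTa
Zeb2, CAGTGTT at chr2:44987826-44987832: agtgccatccttgtaCAGTGTTc
Both seed groups thus have matches in the same 3′ UTR, while CATTTCA (miR-203) and ATGAAGG (miR-205) are nowhere in it. Of the 3′ UTRs of like length, 52.1% hold CATTTCA and 33.9% hold ATGAAGG. Zeb2 is also known as a target of miR-205, although its 3′ UTR lacks the 7-base match searched here. Shorter matches were not searched. The 3′ UTR of Trp63 (3064 nucleotides) holds 1 CATTTCA, and 33.9% of 3′ UTRs of like length hold 1 or more. It also holds 1 CAGTATT, of which 28.5% of those hold 1 or more, and 2 CAGTGTT, of which 8.81% hold 2 or more. That of Inppl1, a lipid phosphatase gene known as a Mir205 target (748 nucleotides), holds 1 ATGAAGG, which 6.60% of those of like length hold.

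The 7 genes showed modest differences between the libraries. Their log2 ratios, replicate 2 over replicate 1, ran from -0.44 for Mir141 to 0.18 for Mir200c with a median size of 0.08, and all 7 lay within 1.5 times. Over the 189 genes at 100 CPM or more the median size was 0.18, and 91.0% lay within 1.5 times. A two-sided exact binomial test knows counting error alone, so it calls smaller differences in genes with more counts. Many of the genes it covered had fewer counts than the 7, and the share called at like levels was not computed. The test called 6 of the 7 at a Benjamini-Hochberg adjusted p under 0.05, against 41.7% of 436 genes tested. Of these, 4 were higher in replicate 2 (20.4% of all genes), namely Mir200c (log2 ratio 0.18, SE 0.026), Mir200a (0.16, SE 0.058), Mir429 (0.08, SE 0.017) and Mir203 (0.05, SE 0.015). Mir141 (-0.44, SE 0.074, adjusted p 1.01e-08) and Mir205 (-0.03, SE 0.012) were higher in replicate 1 (21.3%), and Mir200b was not called (0.00, SE 0.033, adjusted p 0.957). With TMM scaling the binomial test called 5 of the 7, against 40.8% of all genes, and Mir203 was no longer called (adjusted p 0.0671). The edgeR negative binomial test, with the dispersion of the same libraries, called 0 of the 7 and 0 of all genes (percent called 0), with 0 of the 7 and 5.73% of all genes at an unadjusted p under 0.05. That dispersion already takes in the differences between these libraries, so few calls are likely. The 0 therefore does not show that the libraries agree.

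Mir141 was thus lower and Mir200c, 336 nucleotides away, higher in replicate 2. The difference of their log2 ratios is that of the Mir200c to Mir141 ratio, 6.59 against 10.1, whose intervals do not overlap. These intervals cover counting error only. In the edgeR negative binomial test the unadjusted p was 0.221 for Mir141 and 0.565 for Mir200c. Whether the ratio differs by more than the usual spread between pools was not tested. Replicate 2 held fewer gene counts, and its 600 counts on Mir141 were the fewest of any of the 7 genes in either library.

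**Figure D5:**
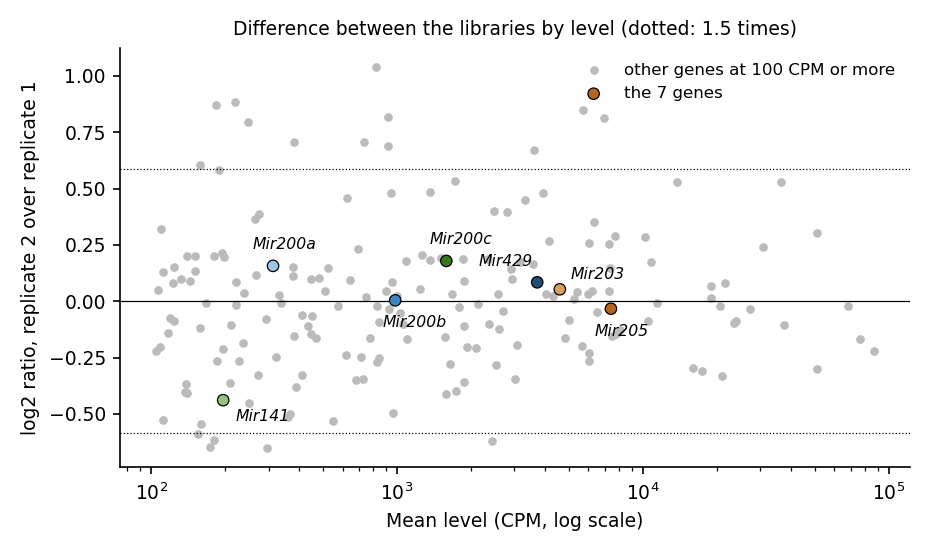
Log2 ratio of replicate 2 over replicate 1 against mean level in CPM (log axis) for the 7 genes (coloured) and the other genes at 100 CPM or more (grey), with dotted lines at 1.5 times. The 7 genes lie inside the dotted lines, with Mir141 at -0.44 the farthest from 0.

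Other microRNAs known from epithelia held fewer counts than the 7 genes. Of 15 such genes, 10 reached 10 CPM in both libraries, as did 14.5% of all gene rows. The 15 summed to 0.893% of gene counts in replicate 1 and 0.895% in replicate 2, against 1.86% and 1.90% for the 7. Mir182 (3011 ± 505 CPM), Mir183 (2472 ± 484) and Mir96 (842 ± 104), 1 cluster also known from sensory cells, led with the endocrine Mir375 (1511 ± 143) and Mir34c of ciliated epithelia (831 ± 9.3). Mir31, a microRNA of the epidermis, stood at 92.0 ± 4.8 CPM. The corneal Mir184 had 29 and 14 counts, and of the Mir449 genes, known from ciliated cells, Mir449a stood at 29.6 and 32.2 CPM while Mir449b and Mir449c had 0 counts in both libraries, which allows up to 0.663 CPM in replicate 1 and 0.832 in replicate 2. Gut Mir192 stood at 67.2 ± 6.2 CPM and Mir215 had 3 and 4 counts. Mir194-1 and Mir194-2 share a stretch, so their levels are uncertain.

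The labelled tissue was checked with markers of the limb's other cells. Mesenchyme genes, led by Mir214, held 4.85% and 5.86% of the counts, cartilage genes 2.60% and 2.52%, skeletal muscle genes 0.225% and 0.254%, and endothelial Mir126a 1.85% and 1.94%. The skeletal muscle share was nearly all Mir206, at 2196 and 2498 CPM. Mir133b stood at 46.8 and 43.3 CPM, Mir1a-1 had 11 and 0 counts, and Mir1a-2 was matched to no row. Smooth muscle and pericyte genes held 0.532% and 0.535%, and red and white blood cell genes 0.0257% and 0.0180%, and 0.0581% and 0.0655%. Of 5 neural genes, Mir137 stood at 151 ± 9.9 CPM and the other 4, which have near-identical copies, had 0 counts. The higher mesenchyme share in replicate 2 was that of Mir214 (log2 ratio 0.30), and the other 3 mesenchyme genes were lower there (-0.16 for Mir199a-1, -0.20 for Mir199b and -0.53 for Mir199a-2). These 3 genes share 20 nucleotides or more with a hairpin elsewhere, so their levels are uncertain. The same holds for Mir133b and Mir1a-1 among the skeletal muscle genes. The part of these cells in the values above was not tested.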

How the data were processed

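Small RNA reads of 2 limb libraries were aligned to mm10 and counted with annotation M4 by the authors, per the file notes deposited beside the tables. Values are raw read counts, whole numbers with 1 row for each microRNA gene. The sources used here do not name the aligner, the counter or the trimming. In all 1973 gene rows the first count column equals the sum of the other two, and the second, which holds nearly all of the counts, was taken as the gene's own strand and used. The 4 rows that name no gene (unmapped, multiply mapped, outside genes, ambiguous), 57.5% of reads in replicate 1 and 63.0% in replicate 2, were left out.

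Identifiers were matched without version to GENCODE M21 (1894 matched, all 7 members included). Ratios and shares carry 95% Clopper-Pearson intervals (scipy 1.17.1). Log2 ratios add 0.5 counts per library. The libraries were compared for each gene whose summed count was at least 10, by an exact binomial test with Benjamini-Hochberg adjustment (threshold 0.05, R 4.3.3), and as an alternative by an exact negative binomial test in edgeR 4.0.16; DESeq2 1.42.0 gave size factors. The binomial test and the dispersion estimate were checked on simulated counts; calls of the negative binomial test were not. That the replicates are separate pools rests on the labels. Named genes are the 7 members, for Mir205 and Mir203 the genes next above and below in mean level, and listed markers. The members and lists were chosen with earlier results of these data known.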

Additional observations from a re-analysis of the deposited data

Results flagged for a closer look

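Mir203 was the only one of the 7 genes with opposite-strand counts, which the levels leave out. It had 84 such counts in replicate 1 and 77 in replicate 2, both above the 3 counts that a count of 0 allows, or 0.411% (95% interval 0.328 to 0.508) and 0.455% (0.360 to 0.569) of its counts on both strands. The other 6 genes had 0. Of all gene rows 0.912% had more than 3 opposite-strand counts in both libraries, and Mir203 ranked 12th of these 18 by level. RefSeq places a hairpin named Gm51289, with the mature strands miR-203b-3p and miR-203b-5p, on the minus strand of the same locus (chromosome 12, 112130887 to 112130946, GRCm38.p6). No row of the tables holds that gene. Whether these reads came from it was not tested.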

How the results depend on the processing

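Of 74 recomputed values for 13 results, 22 leave out 1 of 2 replicates and lie within the spread by construction, so they say nothing of stability. Of the other 52, 34 kept their direction and lay within the spread between replicates (for numbers of genes, within 1.5 times). Many of these 34 were fixed as well, or nearly so. Relative to the gene counts of replicates 1 and 2, TMM factors were 0.993 and 1.007, and DESeq2 factors 0.993 and 1.0075. Such nearly reciprocal factors hardly move a mean over both libraries. Detection in 1 library cannot give fewer genes than detection in both. A ratio of summed counts must lie between the ratios of the replicates. Counting both strands cannot change the cluster and seed ratios, since the miR-200 genes had no opposite-strand counts. Over all reads instead of gene counts, by construction lower, levels were 2946 CPM for Mir205, 1822 for Mir203, 1473 for Mir429, 628 for Mir200c, 390 for Mir200b, 124 for Mir200a and 78.8 for Mir141, and the share of the 7 genes was 0.746%. With both strands counted, Mir205 stood at 7218 CPM, Mir200b at 957.5 CPM and the share at 1.83%. Mir205 and Mir200b had no opposite-strand counts, so their lower values come from the larger total alone. Chosen after seeing the data, the cluster ratio was 0.728 without Mir429, a reversal that follows from removing the highest gene, and 1.87 per hairpin; the seed ratio was 8.24 per hairpin, 15.0 in the chromosome 4 cluster and 8.35 in the chromosome 6 cluster. At 1000 CPM in both libraries 4 of the 7 genes were detected, against 4.66% of all rows. The edgeR negative binomial test, whose dispersion came from the same libraries so that few calls are likely, called 0 of the 7 genes. It also called 0 of all genes tested. With TMM scaling the binomial test called 5, against 40.8% of all genes tested. Without replicate 1 or replicate 2, the cluster ratio ran from 2.78 to 2.85, the seed ratio from 11.6 to 13.1 and the Mir205 to Mir203 ratio from 1.57 to 1.66. No paired analysis was possible because there is 1 group. With 2 pools, spread over further pools is not known, and depth limits Mir141 most (600 counts in replicate 2).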
